A study of Homo sapiens with 23 samples.

Results

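Complement regulators and anaphylatoxin receptors were followed in RNA from 4 lines of human multiple myeloma, a cancer of plasma cells, in which a guide RNA targeted the plasma cell transcription factor IRF4. The lines were RPMI-8226, OPM2, H929 and MM1S. The 6 genes were C3AR1, C5AR1, CD46, CD55, CD59 and CR2, taken by symbol from a count table of 28395 genes, and all 6 were among the 16468 genes abundant enough to be tested. Guide expression was switched on by 48 hours of doxycycline in every sample, controls included, and the controls carried a guide labelled EV. The column names of the deposited RPKM values carry Cas9, the nuclease that a guide directs to its target, for all 23 libraries, EV included. Every group of a line and a guide held 3 RNA sequencing libraries, apart from MM1S EV with 2 (replicates 2 and 3). A single guide against IRF4 and a single time point were used. What EV stands for and which sequence the IRF4 guide has are not stated in the labels. Nor was it stated whether replicates were separate cultures, so p-values reflect variation between these samples alone, possibly technical.

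Complement is a cascade of plasma proteins that coats cells with fragments of C3 and C4 and can end in a pore, the membrane attack complex. Nucleated cells protect themselves with membrane inhibitors. CD55 speeds the decay of the C3 and C5 convertases, CD46 is the cofactor with which factor I cleaves C3b and C4b, and CD59 blocks the last step of pore assembly. CR2 (CD21) binds C3d on antigen and lowers the threshold of B cell activation in a complex with CD81, and it is normally lost as B cells become plasma cells. C3AR1 and C5AR1 are receptors, coupled to G proteins, for the anaphylatoxins C3a and C5a, and are best known on myeloid cells. CD55 and CD59 also matter for antibody therapy of myeloma, since they limit killing by complement.

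Library totals ran from 6907390 to 28486960 counts, and replicates correlated at Pearson r = 0.988 to 0.995 in log2 CPM across genes, which are not independent of each other. Levels are given in CPM, which corrects counts for library size with TMM factors (trimmed mean of M-values), and levels between genes in the deposited RPKM, which also divides by gene length. A guide effect is the log2 fold change, IRF4 over EV, ± SE, and a gene was called at a Benjamini-Hochberg adjusted p under 0.05 from edgeR's quasi-likelihood test over all tested genes. IRF4 itself fell by 1.58 (H929), 1.37 (MM1S), 0.66 (OPM2) and 1.10 (RPMI-8226) on the log2 scale, each called. All 10 plasma cell markers had counts in each of the 23 libraries, with a summed level of 4088 to 18901 CPM. Of the 10, 7, 5, 9 and 4 were called lower and 1, 0, 0 and 2 higher in H929, MM1S, OPM2 and RPMI-8226. Of all tested genes 26.1%, 15.2%, 20.2% and 14.7% were called lower and 32.9%, 19.4%, 23.3% and 19.2% higher. The 10 markers include IRF4, the target of the guide, which was called lower in each line. Their part in the results was not tested. In bulk RNA, fewer cells of a type and less RNA per cell cannot be told apart.

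Calls were common in these data, so counts of members are given beside the share of all tested genes. In H929 4 of the 6 genes were called, against 58.9% of all genes, and in RPMI-8226 also 4, against 33.9%. MM1S and OPM2 had 2 called each, against 34.6% and 43.5%. On the average of the 4 lines 4 were called, 2 higher (C3AR1, CR2) and 2 lower (CD46, CD55), against 57.7% of all genes. The median guide effect of the 6 was 1.06, 0.10, 0.07 and 0.80 in H929, MM1S, OPM2 and RPMI-8226, against 0.10, 0.07, 0.03 and 0.04 for all tested genes, medians that include fitted values of genes at or near 0 counts. C3AR1 was called higher in 4 lines, CR2 in 3 and C5AR1 in 1, while of the membrane inhibitors CD59 was called lower in 1 line and higher in another, and CD55 and CD46 were each called lower in 1.

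**Figure D1:**
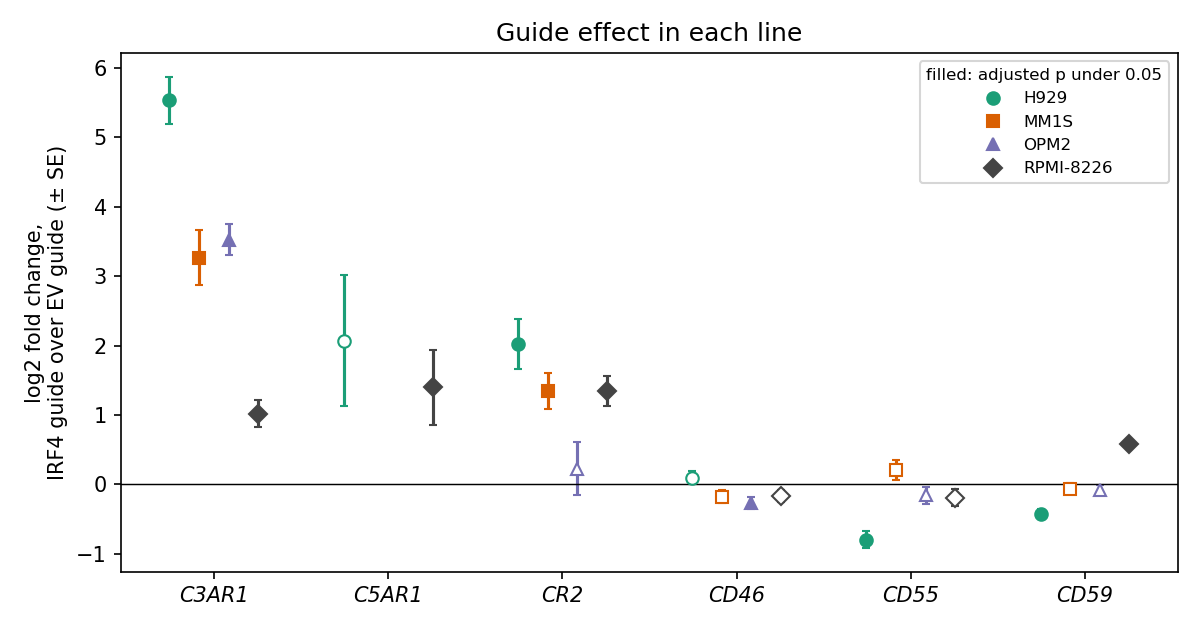
Guide effect on each gene in each line, as log2 fold change (IRF4 over EV) on the vertical axis with bars of ± 1 SE; filled points passed an adjusted p of 0.05. C3AR1 lies above 1 in every line, CD59 is at -0.42 in H929 and 0.58 in RPMI-8226, and C5AR1 is left out in MM1S and OPM2, where a group had 0 counts.

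C3AR1, the receptor for C3a, rose in all 4 lines, 10.1-fold on average, and from a different starting level in each. It lies on the minus strand of chromosome 12, from 8056844 to 8066359 on GRCh38. The 250 bases before its start, chr12:8066360-8066609 on the minus strand (RefSeq, GRCh38.p14), are shown because this gene moved most. Capitals mark a match to GAAA followed directly by TGANTCA, letters known as a composite site of interferon regulatory factors and AP-1 factors. The motifs were chosen after this sequence had been seen.
C3AR1 upstream: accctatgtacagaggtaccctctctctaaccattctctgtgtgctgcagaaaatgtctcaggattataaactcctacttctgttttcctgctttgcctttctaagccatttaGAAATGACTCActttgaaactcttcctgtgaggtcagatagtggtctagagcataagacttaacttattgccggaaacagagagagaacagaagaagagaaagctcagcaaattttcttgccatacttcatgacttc
The match lies from -137 to -127, counted from the start, and its last 7 bases also match the AP-1 motif TGANTCA. Over 35116 RefSeq promoter windows of 300 bases, searched on both strands, 57 held the composite (0.162%) and 7.71% held TGANTCA. The interferon response motif (GAAA, a gap of 2 bases, GAAA) was in 3.57% of windows and the composite of ETS factors (GGAA, a gap of 2 bases, GAAA) in 2.82%, and neither had a match in this window. These matches describe letters only, and binding of IRF4 or of AP-1 factors was not measured.

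In H929 the EV libraries held C3AR1 at 0.559, 0 and 0.140 CPM (14, 0 and 3 counts), and those with the IRF4 guide at 15.2, 15.1 and 13.4 CPM. The library with 0 counts allows up to 3 counts, or 0.375 CPM. C3AR1 was thus close to the detection limit with the EV guide and well above it in every library with the IRF4 guide, a rise of 5.53 ± 0.34 (46.2-fold, adjusted p = 2.88e-13). Without EV replicate 1, which held 14 of the 17 EV counts, the rise was 7.07. In MM1S the level was 1.22 and 0.893 CPM with the EV guide and 9.31, 11.3 and 10.8 with the IRF4 guide, a rise of 3.27 ± 0.39 (9.64-fold, adjusted p = 2.90e-07). In OPM2 it was 2.75, 2.49 and 4.23 CPM against 43.9, 41.6 and 27.4, a rise of 3.53 ± 0.22 (11.5-fold, adjusted p = 1.65e-12). OPM2 with the IRF4 guide thereby had the highest C3AR1 level of the 8 groups. RPMI-8226 expressed C3AR1 without the IRF4 guide, at 11.4, 11.7 and 10.1 CPM, and reached 21.1, 18.9 and 28.2 CPM with it, a rise of 1.02 ± 0.19 (2.03-fold, adjusted p = 0.000187). On the deposited log2 RPKM values, tested with limma, the RPMI-8226 change had a similar size but was not called (0.96, adjusted p = 0.265). The EV and IRF4 guide libraries did not overlap in any line, as was the case for 34.4%, 31.4%, 28% and 24.8% of all tested genes in H929, MM1S, OPM2 and RPMI-8226, counted as IRF4 guide higher.

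**Figure D2:**
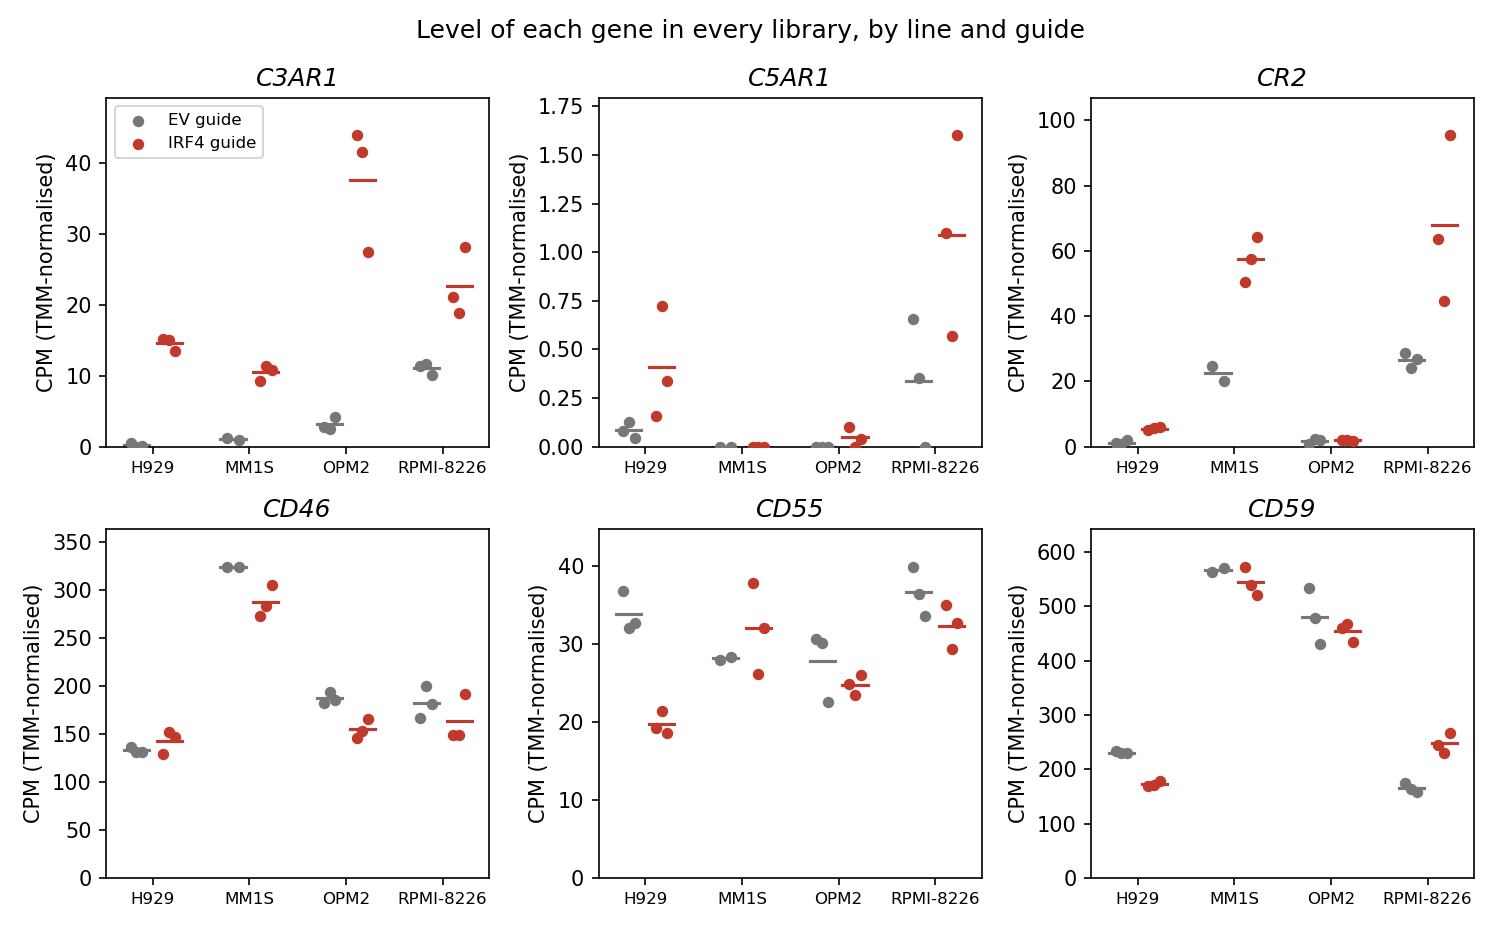
Level of each gene in CPM (linear axis, 1 panel per gene) by line, with a point for each library, grey for the EV guide and red for the IRF4 guide, and a bar at each group mean. The C3AR1 points of the IRF4 guide lie above all EV points in each line, from 13.4 to 15.2 CPM against 0 to 0.559 in H929.

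C3AR1 was called higher in each of the 4 lines, as were 5.14% of tested genes. By size it ranked 64th of the 5369 genes called higher on average, 86th of 5411 in H929, 93rd of 3193 in MM1S, 363rd of 3829 in OPM2 and 1061st of 3162 in RPMI-8226. The rise differed between lines (F test with an adjusted p of 6.44e-09, a test that called 48% of genes). H929 rose more than MM1S (by 2.26, adjusted p = 0.0169), OPM2 (2.00, adjusted p = 0.00316) and RPMI-8226 (4.51, adjusted p = 4.35e-09). MM1S and OPM2 each rose more than RPMI-8226 (2.25 and 2.50, adjusted p = 0.000826 and 5.05e-07), and a difference between MM1S and OPM2 was not detected (-0.26, adjusted p = 0.852). Such differences in effect were called for 25.7%, 22.9% and 34.8% of all genes for H929 against MM1S, OPM2 and RPMI-8226, for 18.4% and 20.2% for MM1S against OPM2 and RPMI-8226, and for 16% for OPM2 against RPMI-8226. The H929 against MM1S difference rests on few counts: it was not called without H929 EV replicate 3 (1.84, adjusted p = 0.0613) or MM1S EV replicate 2 (2.01, adjusted p = 0.165). On the log2 RPKM values the differences of MM1S and OPM2 from RPMI-8226 were not called either (1.98 and 2.08, adjusted p = 0.133 and 0.122).

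The order of C3AR1 levels changed with the guide. With the EV guide H929 was lowest at 0.233 ± 0.291 CPM (SD, n = 3), then MM1S at 1.06 ± 0.234 (n = 2), OPM2 at 3.16 ± 0.938 (n = 3) and RPMI-8226 at 11.1 ± 0.862 (n = 3). Each neighbour in that order differed (adjusted p = 0.0218, 0.00258 and 1.39e-07 from the lowest step up). With the IRF4 guide MM1S was lowest at 10.5 ± 1.05, then H929 at 14.6 ± 0.989, RPMI-8226 at 22.7 ± 4.87 and OPM2 at 37.6 ± 8.91 (n = 3 each), again with each step called (adjusted p = 0.0378, 0.00353 and 0.000713). RPMI-8226 was highest with the EV guide, and OPM2 with the IRF4 guide. Such level differences were common: for H929 against MM1S, OPM2 and RPMI-8226 63.1%, 65.4% and 75.1% of genes were called with the EV guide and 70.3%, 70.8% and 79.1% with the IRF4 guide. For MM1S against OPM2 and RPMI-8226 the shares were 61.4% and 67.7%, and 69.4% and 74%, and for OPM2 against RPMI-8226 72.9% and 76.1%. The EV step between H929 and MM1S (-1.77) was lost without H929 EV replicate 3 (-1.35, adjusted p = 0.0917) or MM1S EV replicate 2 (-1.51, adjusted p = 0.177). The step between MM1S and H929 with the IRF4 guide was lost in 4 of the fits that left out a library, with the lowest value, 0.39 (adjusted p = 0.175), without MM1S IRF4 guide replicate 1. That between H929 and RPMI-8226 with the IRF4 guide was lost without RPMI-8226 IRF4 guide replicate 3 (-0.39, adjusted p = 0.0754). On the log2 RPKM values with limma none of the 3 steps with the IRF4 guide was called (adjusted p = 0.465, 0.320 and 0.234), nor was the EV step between OPM2 and RPMI-8226 (-1.27, adjusted p = 0.0691).

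C5AR1, the receptor for C5a, stayed at the edge of detection. It lies on chromosome 19, from 47307477 to 47322066. MM1S had 0 counts in all 5 libraries, and OPM2 had 4 counts over the 3 IRF4 guide libraries and 0 over the 3 EV libraries. In H929 the IRF4 guide libraries held 4, 6 and 7 counts and the EV libraries 2, 1 and 1. The groups did not overlap in H929, as for 34.4% of all tested genes in the higher direction. The gap was small, from 0.125 CPM in EV replicate 2 to 0.160 in IRF4 guide replicate 1. Both values lie under 0.375 CPM, the level of 3 counts in that EV library. The H929 change of 2.07 ± 0.94 was not called (adjusted p = 0.0630). RPMI-8226 had 23, 14 and 36 counts with the IRF4 guide and 16, 9 and 0 with the EV guide, which overlap, and was called (1.40 ± 0.54, adjusted p = 0.0458). That call did not hold with DESeq2 (1.56, adjusted p = 0.170), on the log2 RPKM values, in a fit of RPMI-8226 alone, or in 10 of the fits that left out a library, with the lowest value, 0.99 (adjusted p = 0.230), without RPMI-8226 IRF4 guide replicate 3. No C5AR1 change held under every alternative at this depth.

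CR2, the C3d receptor of mature B cells, rose in 3 of the 4 lines. It lies on chromosome 1, from 207454328 to 207489892 on the plus strand. Its upstream bases, chr1:207454078-207454327 (RefSeq, GRCh38.p14), are shown as the other receptor that rose, and they held none of the 4 motifs.
CR2 upstream: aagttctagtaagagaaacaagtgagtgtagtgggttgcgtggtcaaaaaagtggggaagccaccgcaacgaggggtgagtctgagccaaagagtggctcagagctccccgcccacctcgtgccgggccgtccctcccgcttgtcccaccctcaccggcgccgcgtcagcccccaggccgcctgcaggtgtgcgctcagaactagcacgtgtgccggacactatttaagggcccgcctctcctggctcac
No capitals are used because no match was found. The windows of CD46, CD55 and C5AR1 also had none, and those of CD59 had matches to the ETS composite and to TGANTCA in different windows of its several start sites.

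In H929 CR2 was at 1.04, 0.750 and 1.96 CPM with the EV guide and at 5.05, 5.67 and 5.95 with the IRF4 guide, a rise of 2.03 ± 0.36 (4.08-fold, adjusted p = 5.59e-05). In MM1S it went from 24.8 and 20.1 CPM to 50.6, 57.6 and 64.3, a rise of 1.35 ± 0.26 (2.54-fold, adjusted p = 0.000365). In RPMI-8226 it went from 28.8, 24.3 and 26.9 CPM to 63.6, 44.6 and 95.4, a rise of 1.35 ± 0.21 (2.55-fold, adjusted p = 5.38e-05). The guide groups were apart in these 3 lines, although RPMI-8226 varied widely with the IRF4 guide. That held for 34.4%, 31.4% and 24.8% of all tested genes in H929, MM1S and RPMI-8226, counted as IRF4 guide higher. In OPM2 the EV libraries were at 0.966, 2.37 and 2.03 CPM and the IRF4 guide libraries at 1.90, 2.06 and 1.74, so the groups overlapped. The OPM2 change was 0.23 ± 0.38 (95% interval -0.52 to 0.98, adjusted p = 0.687). OPM2 is thus the line in which C3AR1 reached its highest level and CR2 showed no called change. The F test of a difference between lines missed the threshold (adjusted p = 0.0546) and passed it with DESeq2 (0.00352). H929 rose more than OPM2 (1.80, adjusted p = 0.0186), a difference lost without H929 EV replicate 1 (1.56, adjusted p = 0.0743) or OPM2 EV replicate 3 (1.54, adjusted p = 0.0963).

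The lines fell into a low and a high pair for CR2. With the EV guide the means were 1.25 ± 0.630 CPM in H929 and 1.79 ± 0.733 in OPM2 (SD, n = 3 each), with no difference detected (adjusted p = 0.619), against 22.4 ± 3.31 in MM1S (n = 2) and 26.6 ± 2.28 in RPMI-8226 (n = 3), again with no difference detected (adjusted p = 0.416). On the log2 RPKM values with limma, H929 was called below OPM2 with the EV guide (-1.20, adjusted p = 0.00134). With the IRF4 guide OPM2 was lowest at 1.90 ± 0.156 and H929 stood above it at 5.55 ± 0.462 (n = 3 each, adjusted p = 0.000193). MM1S and RPMI-8226 were at 57.5 ± 6.86 and 67.9 ± 25.7 (n = 3 each, adjusted p = 0.284). Of the CR2 partners, CD81, a widely expressed tetraspanin, and IFITM1 (Leu-13) were tested. CD81 is named after its values were seen. It was nearly undetected in MM1S, a line with high CR2, with 3 counts over the EV and 6 over the IRF4 guide libraries. In RPMI-8226 CD81 fell from 126 ± 10.1 to 93.3 ± 11.7 CPM (SD, n = 3 each; -0.44 ± 0.09, adjusted p = 0.000185), while it was not called in H929 (-0.08) or OPM2 (0.03). IFITM1, an interferon-induced membrane protein that associates with CD81, rose in H929 (2.44) and OPM2 (3.09) and was at -0.13 in MM1S and 0.03 in RPMI-8226, so its called lines overlapped those of CR2 only in H929.

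CD59, the inhibitor of pore assembly, changed in opposite directions in H929 and RPMI-8226. It lies on chromosome 11, from 33703010 to 33736479. In H929 it was at 234, 229 and 230 CPM with the EV guide and at 169, 171 and 178 with the IRF4 guide. The groups were apart, as for 27.7% of all tested genes in the lower direction, and the change was -0.42 ± 0.07 (1.34-fold lower, adjusted p = 1.34e-05). In RPMI-8226 it went the other way, from 174, 164 and 158 CPM to 245, 230.4 and 268, a rise of 0.58 ± 0.07 (1.495-fold, adjusted p = 4.51e-07). These groups did not overlap either, as for 24.8% of all tested genes in the higher direction. In MM1S the EV libraries were at 564 and 569.9 CPM and the IRF4 guide libraries at 573, 539 and 521 (-0.06 ± 0.08, 95% interval -0.22 to 0.10, adjusted p = 0.642). In OPM2 they were at 533, 479 and 431 against 460.5, 467 and 435 (-0.08 ± 0.07, 95% interval -0.22 to 0.06, adjusted p = 0.388). Both of these lines had overlapping groups.

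The CD59 change differed between lines (F test adjusted p = 4.95e-08). The H929 and RPMI-8226 effects differed by -1.001 (adjusted p = 6.75e-09), MM1S and OPM2 each differed from RPMI-8226 (-0.64 and -0.66, adjusted p = 7.15e-05 and 2.09e-05), and H929 differed from MM1S and OPM2 (-0.36 and -0.34, adjusted p = 0.0140 and 0.0162). The first of these was lost without MM1S EV replicate 2 (-0.36, adjusted p = 0.0607) and the other without OPM2 EV replicate 3 (-0.26, adjusted p = 0.0738). The average over the lines, 0.00, sums opposite changes: it was 0.15 (adjusted p = 0.00629) without H929 and -0.19 (adjusted p = 0.000492) without RPMI-8226. With the EV guide the order of levels was RPMI-8226 at 166 ± 8.19 CPM, H929 at 231 ± 2.31, OPM2 at 481 ± 51.3 (SD, n = 3 each) and MM1S at 567 ± 4.21 (n = 2). The step from OPM2 to MM1S (0.24) was called, but not in 5 of 30 alternatives. These included no count filter (0.19, adjusted p = 0.108) and leaving out OPM2 EV replicate 2 (0.18, adjusted p = 0.0878). RPMI-8226 was below H929 with the EV guide (adjusted p = 1.03e-06) and above it with the IRF4 guide, at 248 ± 18.7 against 172 ± 5.03 CPM (adjusted p = 1.87e-07). MM1S and OPM2 remained the highest, at 544 ± 26.8 and 454 ± 17.2 CPM with the IRF4 guide (n = 3 each).

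CD55, which dissociates the convertases, fell in H929. It lies on chromosome 1, from 207321678 to 207360966. H929 held it at 36.8, 32.0 and 32.7 CPM with the EV guide and at 19.2, 21.4 and 18.6 with the IRF4 guide, groups that lie apart (-0.80 ± 0.12, 1.74-fold lower, adjusted p = 2.06e-06). So did those of 27.7% of all tested genes in H929, counted as IRF4 guide lower. The other lines had overlapping groups and no call. MM1S was at 27.9 and 28.3 CPM against 37.8, 26.2 and 32.0 (0.20 ± 0.14, 95% interval -0.08 to 0.48, adjusted p = 0.292). OPM2 was at 30.7, 30.1 and 22.6 CPM against 24.9, 23.5 and 26.0 (-0.16 ± 0.12, 95% interval -0.39 to 0.08, adjusted p = 0.314). RPMI-8226 was at 39.9, 36.5 and 33.6 CPM against 35.0, 29.4 and 32.6 (-0.19 ± 0.12, 95% interval -0.42 to 0.04, adjusted p = 0.225). The H929 effect differed from that in MM1S (-0.999, adjusted p = 0.000163), OPM2 (-0.64, adjusted p = 0.00622) and RPMI-8226 (-0.61, adjusted p = 0.00549). The average, -0.23 ± 0.06 (adjusted p = 0.00192), was carried by H929 and came to -0.05 (adjusted p = 0.664) without it.

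The level of CD55 differed between lines with the EV guide (F test adjusted p = 0.00579). It ran from 27.8 ± 4.51 CPM in OPM2, 28.1 ± 0.291 in MM1S (n = 2) and 33.8 ± 2.59 in H929 to 36.6 ± 3.18 in RPMI-8226 (SD, n = 3 for the other lines), and no difference between neighbours in that order was detected (adjusted p = 0.919, 0.0924 and 0.381). Lines farther apart did differ: OPM2 and MM1S were below RPMI-8226 (-0.41 and -0.39, adjusted p = 0.00280 and 0.0157), and H929 was above OPM2 (0.30, adjusted p = 0.0312). The call for OPM2 against RPMI-8226 was lost without OPM2 EV replicate 3 (-0.27, adjusted p = 0.0503). That for H929 against OPM2 was lost on the log2 RPKM values (0.24, adjusted p = 0.0882) and without that library (0.16, adjusted p = 0.278) or replicate 1 or 3 of either H929 group (0.23 to 0.29). That for MM1S against RPMI-8226 was lost without either MM1S EV library (-0.38 and -0.40) or RPMI-8226 EV replicate 1 (-0.32, adjusted p = 0.0684). With the IRF4 guide H929 was lowest at 19.7 ± 1.44 CPM, below OPM2 at 24.8 ± 1.29 (adjusted p = 0.0142). In H929 both CD55 and CD59 fell while C3AR1 and CR2 rose.

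CD46, the cofactor for factor I, was called in OPM2 alone, as a small fall. It lies on chromosome 1, from 207752038 to 207795516. In OPM2 it was at 182, 194 and 186 CPM with the EV guide and at 146, 153.5 and 166 with the IRF4 guide, without overlap (-0.27 ± 0.09, 1.21-fold lower, adjusted p = 0.0113). That call was lost on the log2 RPKM values (-0.15, adjusted p = 0.207) and without OPM2 IRF4 guide replicate 1 (-0.23, adjusted p = 0.0644) or EV replicate 2 (-0.23, adjusted p = 0.0510). In MM1S both EV libraries were at 324 CPM and the IRF4 guide libraries at 273, 283 and 305, also apart, but not called (-0.18 ± 0.10, 95% interval -0.37 to 0.01, adjusted p = 0.163). The groups of 23.9% of all tested genes in OPM2 and 24% in MM1S lay apart in this direction. H929 was at 136, 131 and 132 CPM against 129, 152 and 147 (0.10 ± 0.09, 95% interval -0.07 to 0.27, adjusted p = 0.337), and RPMI-8226 at 166, 199.8 and 181 against 149, 149 and 191 (-0.16 ± 0.09, 95% interval -0.33 to 0.01, adjusted p = 0.150). Both had overlapping groups. Without RPMI-8226 IRF4 guide replicate 3 the RPMI-8226 change was -0.31 and called (adjusted p = 0.00500). The F test of a difference in the CD46 effect between lines missed the threshold (adjusted p = 0.0656). OPM2 differed from H929 (0.37 for H929 minus OPM2, adjusted p = 0.0261), a call lost in 7 of 30 alternatives. No difference of OPM2 from MM1S or RPMI-8226 was detected (0.09 for MM1S minus OPM2, -0.11 for OPM2 minus RPMI-8226). The average of -0.13 ± 0.04 (adjusted p = 0.0150) was not called without MM1S (-0.11, adjusted p = 0.0572), OPM2 (-0.08, adjusted p = 0.207) or RPMI-8226 (-0.12, adjusted p = 0.0572). Between lines, MM1S stood highest with the EV guide at 324 ± 0.144 CPM (n = 2), OPM2 and RPMI-8226 followed at 187 ± 6.22 and 183 ± 16.7 with no difference detected (adjusted p = 0.720), and H929 was lowest at 133 ± 2.73 (SD, n = 3 each).

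CD55, CR2 and CD46 lie within 473.8 kb of chromosome 1, a cluster of complement regulators that also holds CR1 and CR1L. Their guide effects differed in sign within H929, where CD55 was at -0.80, CR2 at 2.03 and CD46 at 0.10. CR1, the receptor for C3b and C4b, had at most 25 counts in a library, and CR1L at most 1. The labels do not say if the counting used strand. C11orf91, which overlaps CD59, had at most 8 counts.

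Compared per length, CD46 and CD59 were the most abundant of the 6 transcripts in every line. With the EV guide the deposited RPKM of CD46 was 38.0, 99.3, 53.4 and 52.4 in H929, MM1S, OPM2 and RPMI-8226, and that of CD59 27.9, 76.0, 56.4 and 19.95. CD55 followed at 9.73, 8.04, 8.28 and 10.5 RPKM. The receptors were lower: CR2 at 0.303, 5.25, 0.690 and 6.28 RPKM, and C3AR1 at 0.133, 0.635, 2.40 and 5.68. With the IRF4 guide C3AR1 reached 6.97, 4.89, 19.9 and 11.2 RPKM, and CR2 1.03, 13.3, 0.525 and 15.8. In OPM2 with the IRF4 guide C3AR1, at 19.9 ± 4.90 RPKM, thus stood above CD55 at 7.41 ± 0.407 (SD, n = 3), and CD59 at 59.6 remained the most abundant. RPKM recomputed from the counts gave lower OPM2 EV values for C3AR1 (1.51) and CR2 (0.422), and the cause was not tested.

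**Figure D3:**
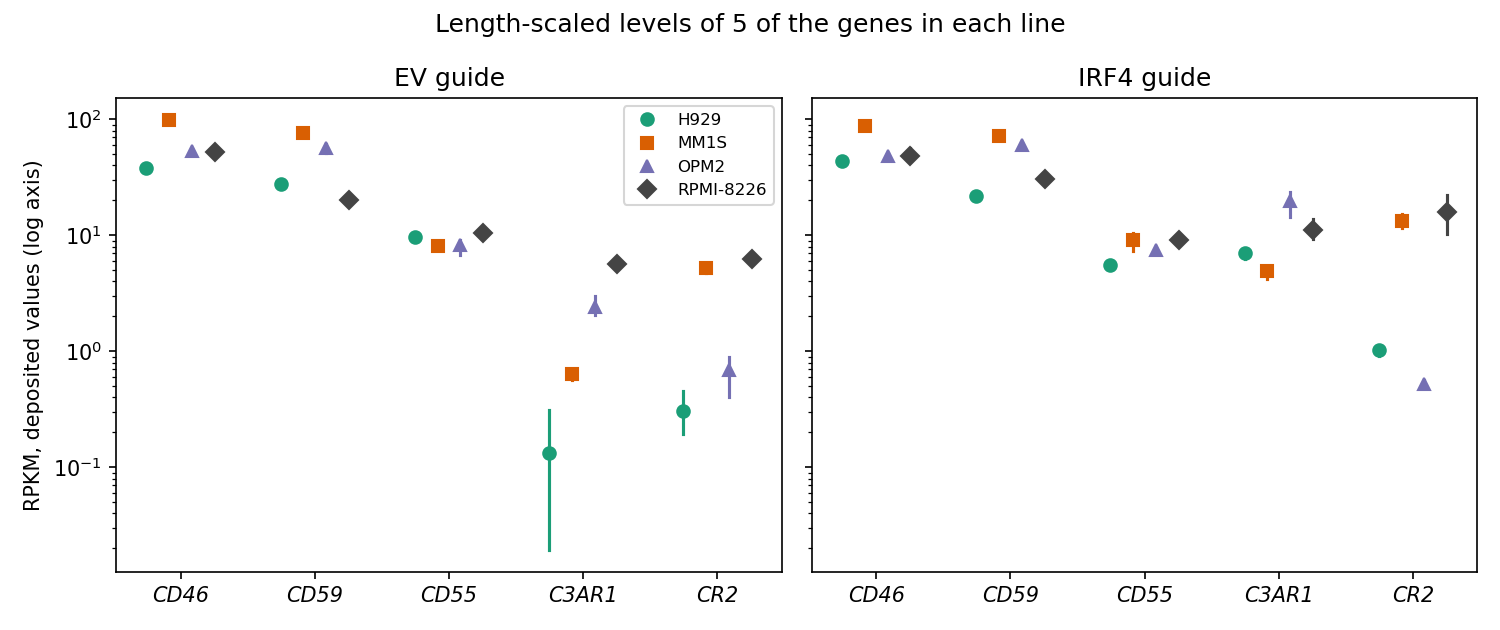
Deposited RPKM of CD46, CD59, CD55, C3AR1 and CR2 on a log axis in each line, with the EV guide (left panel) and the IRF4 guide (right panel); points are group means and vertical lines run from the lowest to the highest library. CD46 and CD59 lie highest in both panels, and C3AR1 in OPM2 moves from 2.40 to 19.9 RPKM, above CD55.

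All 6 genes differed between lines with the EV guide by the F test, as did 93.1% of tested genes. The genes whose pattern over the 8 group means was most like each member were found by the root mean square difference of centred log2 CPM. For C3AR1, with a spread of 2.26 of its own, they were SSPO (0.880), ARHGEF40 (0.968), ZNF467 (1.02) and PARP9 (1.07), none of them close. For CR2 (spread 2.18) they were GCHFR (0.399) and LINC00880 (0.426), and for CD59 (spread 0.700) ZNF565 (0.165) and TNFSF13B (0.188), the B cell survival factor BAFF. For CD55 (spread 0.266) they were ZNF131 (0.108) and LARS2 (0.110), and for CD46 (spread 0.437) ELK4 (0.0933) and MSRA (0.1004). For C5AR1, whose pattern holds groups at 0 counts, they were RAP1GAP (0.293) and HIST3H2BB (0.318).

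The other complement genes were taken from a list of 54, which left out the 6, and 27 of them were abundant enough to be tested. In H929 11 of the 27 were called higher and 1 lower, against 32.9% and 26.1% of all tested genes. MM1S had 4 higher and 1 lower (19.4% and 15.2% of all genes), OPM2 12 and 1 (23.3% and 20.2%), and RPMI-8226 7 and 4 (19.2% and 14.7%). On average 12 were higher and 1 lower, against 32.6% and 25.1%. The median change of the genes with over 3 counts in both groups was 1.08 in H929 (19 genes), 0.83 in OPM2 (16), 0.32 in MM1S (12) and 0.06 in RPMI-8226 (22), against 0.08, 0.02, 0.07 and 0.04 for all such genes. With genes that had 3 or fewer counts in 1 group set to their bound the medians were 1.81, 1.21, 0.09 and 0.09, against 0.12, 0.04, 0.08 and 0.05. Some of these genes pass the count filter only through the group in which they are high, so the counts and medians are descriptions. Named after their values were seen, the genes called lower other than C1QBP were COLEC12, a scavenger receptor of the collectin family, in MM1S (0 against 5 counts) and RPMI-8226 (-1.98), and CFD, the factor D protease, and CD81 in RPMI-8226 (-0.65 and -0.44). Those called higher in MM1S included C5AR2, ITGAM and CFB, and all 15 CFB counts came from a single library. C3 itself, looked up after its values were seen, had 34 counts over all libraries and at most 7 in any.

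**Figure D4:**
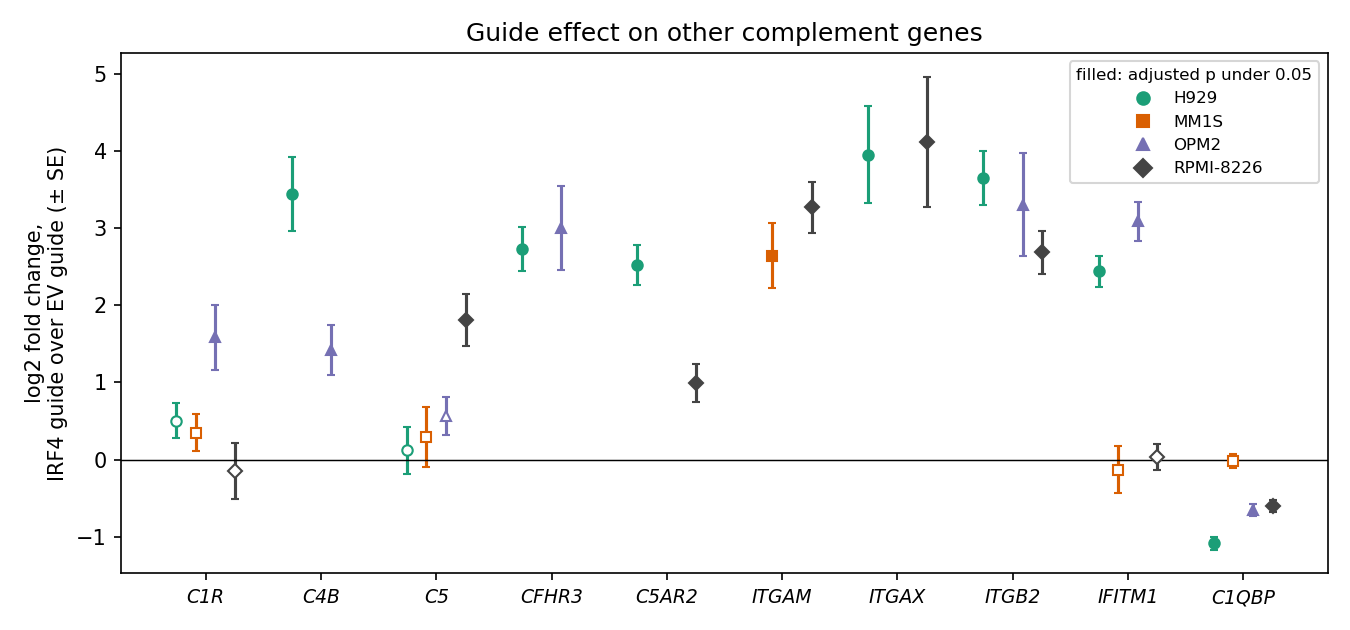
Guide effect on other complement genes selected by the naming rule, by line, as log2 fold change on the vertical axis with bars of ± 1 SE; filled points were called, and lines in which a group had 3 or fewer counts are left out. C1QBP lies below 0 in H929, OPM2 and RPMI-8226, and ITGAX in RPMI-8226 is the highest point at 4.13.

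Among the receptors, ITGB2, the shared chain of complement receptors 3 and 4 for iC3b, rose in H929 (3.65), OPM2 (3.31) and RPMI-8226 (2.69), and had 5 against 0 counts in MM1S. Its partner ITGAM rose in MM1S (2.64) and RPMI-8226 (3.27), was 10.6-fold higher in H929 (95% counting interval 2.59 to 93.3) and in OPM2 at least 2.31-fold higher. The other partner, ITGAX, rose in H929 (3.96) and RPMI-8226 (4.13), reached at least 6.41-fold in OPM2, a called rise, and had 0 counts in MM1S. C5AR2, a second receptor for C5a that does not couple to G proteins, rose in H929 (2.52) and RPMI-8226 (0.99) and was 16.3-fold higher in MM1S (95% counting interval 4.36 to 137). In OPM2 C5AR2 had 14 against 3 counts, 3.59-fold higher (95% counting interval 1.002 to 19.5), and was not called (adjusted p = 0.0726). Counting intervals and floors of 3 counts over a group cover counting error only. Of the 7 tested genes in this group of receptors and membrane regulators, 4 were higher in each of H929, OPM2 and RPMI-8226 and 2 in MM1S. The shares of all tested genes called higher were 32.9%, 23.3%, 19.2% and 19.4% in that order. C1QBP, a mitochondrial protein that binds C1q, was the gene called lower on average (-0.59 ± 0.04, adjusted p = 4.02e-13). It fell by 1.09 in H929, 0.66 in OPM2 and 0.60 in RPMI-8226 and was at -0.02 in MM1S.

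Among the soluble regulators, CFHR3 rose in H929 (2.74) and OPM2 (3.00). CFI (factor I), the protease for which CD46 is a cofactor, is named after its values were seen. It rose in OPM2 from 7.75 ± 1.22 to 12.7 ± 2.49 CPM (SD, n = 3 each; 0.70 ± 0.21, adjusted p = 0.00912), where CD46 fell by 0.27. In H929 CFI had 4 EV counts, all in 1 library, and 100 with the IRF4 guide (4.56 ± 0.54, adjusted p = 4.30e-08), and MM1S and RPMI-8226 had at most 1 count in a group. Of the 5 tested soluble regulators 3 were higher in each of H929 and OPM2, 1 in MM1S and 0 in RPMI-8226. The shares of all tested genes called higher were 32.9%, 23.3%, 19.4% and 19.2% in that order. Among the components, C4B rose in H929 (3.45) and OPM2 (1.42) and was 12.2-fold higher in RPMI-8226 (95% counting interval 3.07 to 105), with the reservation that C4A is nearly identical and the counting could split their reads. C5, the precursor of C5a, rose in RPMI-8226 (1.81) and on average (0.70), and C1R, a protease of the first component, in OPM2 (1.59) and on average (0.57). Of the 6 tested genes of the classical pathway with C3 and C5, 2, 0, 3 and 3 were higher in H929, MM1S, OPM2 and RPMI-8226. In edgeR no member of this group was lower. Across all tested genes 32.9%, 19.4%, 23.3% and 19.2% were called higher in these lines and 26.1%, 15.2%, 20.2% and 14.7% lower.

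C3AR1, ITGAM and ITGAX are also expressed by myeloid cells, and some markers of other cells were called with the guide as well. Of 14 myeloid markers 6 were tested, and 4, 2, 2 and 1 of them were called higher in H929, MM1S, OPM2 and RPMI-8226. Of all tested genes 32.9%, 19.4%, 23.3% and 19.2% were called higher in these lines, so the RPMI-8226 count is near that share. The summed level of the 14 was 2.80 to 3.25 CPM with the EV guide and 35.0 to 39.0 with the IRF4 guide in H929, and 5.40 to 7.48 against 9.51 to 12.99 in MM1S. It was 2.86 to 4.46 against 3.49 to 6.51 CPM in OPM2, and 31.3 to 36.6 against 42.3 to 45.4 for RPMI-8226. Of the 14, CD33 had counts in all 23 libraries and reached 41.4 CPM, and S100A9 reached 31.1. CSF1R, S100A8 and CD14 reached 3.20, 2.92 and 1.97 CPM, and the other 9 never passed 1 CPM. Those 9 include LYZ (lysozyme), at most at 0.362 CPM, and ELANE, the neutrophil elastase, at 0 in all libraries. C3AR1 itself, with the IRF4 guide, was at 13.4 to 15.2 CPM in H929 and 9.31 to 11.3 in MM1S. It was at 27.4 to 43.9 CPM in OPM2 and 18.9 to 28.2 in RPMI-8226. In H929 the 8 T and NK cell markers summed to 13.8 to 15.8 CPM with EV and 124 to 134 with the IRF4 guide. CD3E reached 119 CPM there. The sums were 5.47 to 6.12 against 11.1 to 14.96 CPM in MM1S and 0 to 0.297 against 2.57 to 3.70 in OPM2. In RPMI-8226 they were 3.29 to 5.35 against 7.58 to 8.94 CPM. Of the 7 tested, 6, 1, 3 and 2 were called higher in H929, MM1S, OPM2 and RPMI-8226. The shares of all tested genes were again 32.9%, 19.4%, 23.3% and 19.2%. Stromal and epithelial markers summed to 232 to 242 CPM in EV and 187 to 199 in IRF4 guide libraries of RPMI-8226, and to at most 5.17 in the other lines, and erythroid ones to at most 3.62. Their part in the changes of the complement genes was not tested.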

How the data were processed

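The authors' deposited files are 1 table of raw counts by Entrez gene for the 23 libraries, and log2 RPKM values of 16220 genes per library. Subread, featureCounts and limma were used on GRCh38 (hg38), per the submitters' processing notes. Their versions and settings, and any use of strand, are not given in the sources used here. Counts were tested with edgeR 4.0.16 (R 4.3.3): filterByExpr by group (minimum count 10) kept 16468 genes, TMM factors ran from 0.914 to 1.08, and 490 genes without a symbol stayed in. From a robust quasi-likelihood fit of the 8 group means came the guide effect per line, their average, differences between lines (pairwise, and an F test) and line levels within each guide. P-values were adjusted by Benjamini-Hochberg over all tested genes of a contrast. The 95% intervals of log2 fold changes use the normal quantile and the SE. The script was tested on simulated counts.

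Members, gene lists and motifs were chosen with earlier results of these data known. Named genes were the 6 members and IRF4, up to 10 complement genes called on average with the smallest adjusted p, any called the same way in 3 or more lines, and the 4 (C3AR1) or 2 genes most like each member. Alternatives were DESeq2 1.42.0 and its size factors, upper-quartile scaling, no count filter, limma 3.58.1 on the deposited log2 RPKM, fits of 1 line, the replicate number as a block, and leaving out each library or line. Promoter sequences came from RefSeq (GRCh38.p14), with 10 windows for the 6 genes. Some genes that the naming rule selects are not reported here.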

Additional observations from a re-analysis of the deposited data

Results flagged for a closer look

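The guide effect differed between the 4 lines, by the F test in edgeR, for C3AR1 (adjusted p = 6.44e-09), CD59 (adjusted p = 4.95e-08) and CD55 (adjusted p = 0.000445), a test that 48% of all tested genes passed. C3AR1 rose in every line, by 5.53 in H929 and 1.02 in RPMI-8226. CD59 fell by 0.42 in H929 and rose by 0.58 in RPMI-8226. CD55 fell by 0.80 in H929 and was not called in the other lines.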

How the results depend on the processing

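Each guide effect of the 6 genes, and each F test of its difference between lines, was counted as 1 case under each alternative. Comparisons of C5AR1 that involve a group with 3 or fewer counts were left out. The call was unchanged in 954 cases, lost in 23 and gained in 23, and in 1 the average of CD59 changed sign and was called. Sign changes of effects called in neither fit are among the 954. In OPM2 the effect of CR2 ran from -0.32 to 0.49 and that of CD59 from -0.16 to 0.081. The called effects of C3AR1 in H929, MM1S and OPM2, of CR2, of CD55 in H929 and of CD59 in H929 and RPMI-8226 kept their calls in every alternative run. With the deposited log2 RPKM and limma, C3AR1 in RPMI-8226 (0.96), C5AR1 in RPMI-8226 (2.03), CD46 in OPM2 (-0.15) and the CD46 average (-0.068) were not called. C5AR1 in RPMI-8226 was also lost with DESeq2 (1.56) and in a fit of that line alone (1.36), and ran from 0.99 to 2.11 without single libraries. C5AR1 in H929 was called with no count filter (2.09) and ran from 1.64 to 2.53 without single libraries. The CD46 average was lost with upper-quartile factors (-0.10) and without MM1S, OPM2 or RPMI-8226 (-0.11, -0.080 and -0.12). CD46 was called in a fit of MM1S alone (-0.23). Without single libraries CD46 lay between -0.32 and -0.23 in OPM2 and between -0.31 and -0.090 in RPMI-8226, and its level in H929 minus RPMI-8226 with the IRF4 guide (-0.19) ran from -0.26 to 0.00078. Without H929 the CD55 average was -0.047 and the CD59 average 0.15, and without RPMI-8226 the CD59 average was -0.19. The F test for CD46 (adjusted p = 0.0656) passed with DESeq2 size factors (0.0462), upper-quartile factors (0.0315) and DESeq2 (0.0466), and ran from 0.00747 to 0.182 without single libraries. That for CR2 passed with DESeq2 (0.00352), no filter (1.64e-06) and log2 RPKM (0.00144), and ran from 0.00331 to 0.215. The cause of these shifts was not tested. Among contrasts of levels or effects between lines, 70 fits lost a call and 22 gained 1.

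Replicate numbers were not taken to pair the samples: same-numbered deviations correlated at 0.0256 to 0.183, with 6 of 11 pairs over 0.1. All 11 IRF4 guide libraries that had an EV library of the same number nevertheless correlated best with it. With a replicate block common to the lines, the CD46 F test had an adjusted p of 0.0156. With the replicate block within each line it was 0.0170, that of CR2 was 0.0342, and CD46 was called in RPMI-8226 (-0.17). The difference in CD46 effect between H929 and RPMI-8226 was gained under both blocks (0.26 and 0.27, adjusted p = 0.0365 and 0.0337). For C3AR1 in H929 minus MM1S, the difference in effect was lost under both (2.28 and 2.16, adjusted p = 0.0502 and 0.154), as was the EV level difference (-1.77 and -1.68, adjusted p = 0.0636 and 0.167). The block within lines also lost that level difference with the IRF4 guide (0.47, adjusted p = 0.115) and the CD55 EV difference of MM1S from RPMI-8226 (-0.26, adjusted p = 0.0786). Counts of called genes stayed within 1.5 times under each alternative, but 46.2% of genes called on average were higher with the log2 RPKM against 56.5% with counts, and 45.6% against 55.7% in H929. The median gene in H929 was at 0.10, at 0.17 with upper-quartile factors and at -0.07 with the log2 RPKM. Depth limits C5AR1 in each line, and C3AR1 with the EV guide in H929 and MM1S.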
